A study of Mus musculus with 8 samples.

Results

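Hba-a1, Cebpb and Bcl2a1b, a red cell gene and a pair of genes used as markers of myeloid cells, were followed across the sorted cells of the newborn mouse cerebral cortex. They were selected on measured values, because earlier results of these same arrays had shown all 3 to be lower in the GFP-positive than in the GFP-negative cells, so that this contrast is described for them without a test. Gene probes were taken whose RefSeq transcript, with the version dropped, belongs to 1 of these genes. This gave 4 probes of the 33012 gene probes on the array, 1 for Hba-a1, 1 for Bcl2a1b and 2 for Cebpb. Only 317 probes, of 311 genes, could be given a gene symbol at all.

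The cells came from the cerebral cortex of GAD67-EGFP+/- pups at postnatal day 0 (P0), heterozygotes that carry EGFP at the gene for GAD67, an enzyme of GABA synthesis, so that GABAergic neurons fluoresce. Controls and sorted neurons therefore share the genotype, and the GFP-negative cells are the rest of the same dissociated cortex, a mixture. Each fraction was represented by 4 samples, numbered 1 to 4 and called biological replicates by the submitters, and the number of pups behind each is not given in the sources used here. Sorted cells went into RNA extraction without culture, and 500 ng of total RNA was reverse-transcribed, amplified by in vitro transcription with digoxigenin and hybridized to 1 one-colour array per sample. Values are the arrays' linear signal intensity, or its log2 after quantile normalization over the 8 arrays where "normalized" is written. A probe counts as above background on an array if the deposited score of signal over noise there reaches 3.

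Haemoglobin alpha, encoded by Hba-a1 and its twin Hba-a2, makes up haemoglobin together with beta globin and is made in very large amounts by red cell precursors, whose RNA persists in young red cells in the blood of a newborn. C/EBPβ, the product of Cebpb, is a leucine zipper transcription factor that works in macrophages, granulocytes and microglia, and it is also made in other cells, neurons and astrocytes among them. BCL2A1, encoded in mice by Bcl2a1b and its relatives, is an anti-apoptotic member of the BCL2 family that NF-kB induces in leukocytes. The first gene thus stands for red cells, Bcl2a1b for leukocytes, and Cebpb for leukocytes with less certainty. In a bulk sample, fewer cells of a type and less RNA per cell cannot be told apart.

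The promoters of the 3 genes are shown because the genes stand for different cell types, whose factors read different letters. Printed are the 250 bases before each transcription start on the forward strand, from RefSeq and assembly GRCm38.p6. Hba-a1 lies at chr11:32283672-32284486, Cebpb at chr2:167688915-167690432 and Bcl2a1b at chr9:89199273-89207838, and the stretches printed are chr11:32283422-32283671, chr2:167688665-167688914 and chr9:89199023-89199272. Capitals mark CCACCC, the core letters bound by the red cell factor KLF1 (GGGTGG where it lies on the reverse strand, as in Cebpb), and GAGGAAG, letters bound by the myeloid and lymphoid factor PU.1, of which Bcl2a1b holds 2 copies that share 1 base.
Hba-a1: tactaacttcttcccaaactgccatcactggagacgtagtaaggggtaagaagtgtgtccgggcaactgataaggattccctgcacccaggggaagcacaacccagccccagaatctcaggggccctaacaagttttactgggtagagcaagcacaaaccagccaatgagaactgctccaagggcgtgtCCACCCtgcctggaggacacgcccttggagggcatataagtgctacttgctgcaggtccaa
Cebpb: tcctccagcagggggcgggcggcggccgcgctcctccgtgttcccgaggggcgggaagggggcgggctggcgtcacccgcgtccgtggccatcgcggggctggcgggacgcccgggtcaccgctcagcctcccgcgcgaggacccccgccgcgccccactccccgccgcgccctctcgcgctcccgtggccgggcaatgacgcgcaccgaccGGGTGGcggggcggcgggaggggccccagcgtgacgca
Bcl2a1b: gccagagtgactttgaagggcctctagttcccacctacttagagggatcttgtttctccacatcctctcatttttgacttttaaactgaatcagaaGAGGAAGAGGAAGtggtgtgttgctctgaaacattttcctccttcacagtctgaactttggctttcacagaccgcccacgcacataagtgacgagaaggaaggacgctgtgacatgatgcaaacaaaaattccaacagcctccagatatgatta
Each motif was searched on both strands of windows of 300 bases, which run 50 bases past the start. CCACCC was held by 31.5% of the 32851 mouse promoter windows in the table and GAGGAAG by 13.6%, so neither is rare. AGATAA, a form of the letters of GATA factors, was held by 11.2% of all windows and TTGCNNAA, letters of C/EBP factors, by 10.8%. Neither was found in the windows of Hba-a1, Cebpb or Bcl2a1b. Only these letters were searched, and the near form TGATAA, which the printed Hba-a1 stretch holds, was not counted. The windows are therefore not shown to lack sites of GATA factors. The NF-kB letters, GGG and CC parted by any 5 bases, matched all 3 windows but also 50.8% of all windows, and was left in lower case. TATAAA, letters of the TATA box, was held by 13.6% of windows, and among these genes by Cebpb alone. That match lies 21 to 26 bases after the start, outside the printed stretch, and is not called a TATA box here. The printed Hba-a1 stretch holds the near form TATAAG shortly before the start, which the search did not count. These matches describe letters in the sequence and are no evidence of binding.

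Hba-a1 and Bcl2a1b have near-identical copies in the genome. The promoter window of Hba-a1 matched that of Hba-a2 at 297 of 297 aligned bases. The window of Bcl2a1b matched that of Bcl2a1a at 254 of 256 aligned bases, that of Bcl2a1d at 247 of 250 and that of Bcl2a1c at 224 of 234. No probe is listed under the accession of any of these copies, and the probe sequences were not used here, so which copy a signal comes from is uncertain.

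Hba-a1, the red cell gene, was among the brighter signals of the GFP-negative arrays and fell to a small share of that in the GFP-positive cells. Its signal on the GFP-negative arrays 1 to 4 was 1028393, 516519.7, 682189.5 and 532575. On the GFP-positive arrays 1 to 4 it was 54179, 22493.5, 19362 and 14743. Every GFP-negative array was far above every GFP-positive array, and the groups did not overlap. Here and for the other genes chosen on this contrast, a lack of overlap is a description. The share of all probes without overlap was not counted. The normalized mean was 19.32 ± 0.19 (SD, n = 4) in GFP-negative and 14.57 ± 0.43 (SD, n = 4) in GFP-positive cells, a difference of -4.75 on the log2 scale, or 26.9-fold lower. Among the 33012 gene probes its brightness place was 113 to 192 in GFP-negative and 2859 to 4809 in GFP-positive samples. It was above background on all 8 arrays, with signal-to-noise scores of 46.04 to 75.47 on the GFP-positive arrays. Haemoglobin RNA was thus measured in the GFP-positive samples as well, at a lower level.

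Cebpb, the transcription factor, was lower in the GFP-positive cells of every pair, by amounts that varied widely. The probe that passed the filter on dim probes read 27304, 9649, 19899.8 and 9606 on the GFP-negative arrays 1 to 4. It read 7151, 3160.1, 1611 and 1057 on the GFP-positive arrays. The highest GFP-positive array came near the lowest GFP-negative arrays but stayed below them. The normalized means were 13.83 ± 0.56 (SD, n = 4) and 11.29 ± 1.09 (SD, n = 4), a difference of -2.54, or 5.82-fold lower. All 8 arrays were above background, with GFP-positive signal-to-noise scores of 29.94, 14.49, 7.91 and 5.74.

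The second Cebpb probe was dim and was not tested. It read 918, 451, 1191 and 628 on the GFP-negative arrays, where it was above background on 2 of 4. It read 355, 446, 157 and 181 on the GFP-positive arrays, where it was above background on none of the 4. Its normalized difference was -1.41, on that scale it was lower in 3 of 4 pairs, and the groups overlapped. The mean was lower in GFP-positive cells by both probes. As the GFP-positive level of the second probe is only a bound, whether the size of the difference depends on the probe cannot be read.

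Bcl2a1b, the leukocyte survival gene, was measured in the GFP-negative cells and stayed below the detection score in all GFP-positive samples. Its signal was 4602, 2585, 3352 and 2256 on the GFP-negative arrays 1 to 4, with signal-to-noise scores of 27.03, 23.69, 10.25 and 8.07. On the GFP-positive arrays it was 441, 367, 381 and 514, with scores of 1.37, 0.75, -0.88 and 2.69. The GFP-negative arrays all read above the GFP-positive ones. Normalized means were 11.52 ± 0.30 and 8.79 ± 0.23 (SD, n = 4 each). As the GFP-positive level is only a bound, the gene was at least 6.63-fold lower, and at most 15.1% of its GFP-negative signal was left. The bound compares the GFP-negative mean with, per GFP-positive array, its measured signal or, if that is larger, the smallest signal that any detected probe gave. Here it equals the measured fold, and it does not cover the spread between arrays.

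Signals of probes that detect nothing are not 0 on these arrays, which matters most for the dim members. Among gene probes with a negative score, the median signal was 226.0 to 291.5 in GFP-negative and 191.4 to 327.3 in GFP-positive samples. Bcl2a1b stood at only 1.35, 1.92, 1.59 and 2.15 times this level on the GFP-positive arrays. Cebpb stood at 21.85, 16.51, 6.72 and 4.41 times it there.

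**Figure D1:**
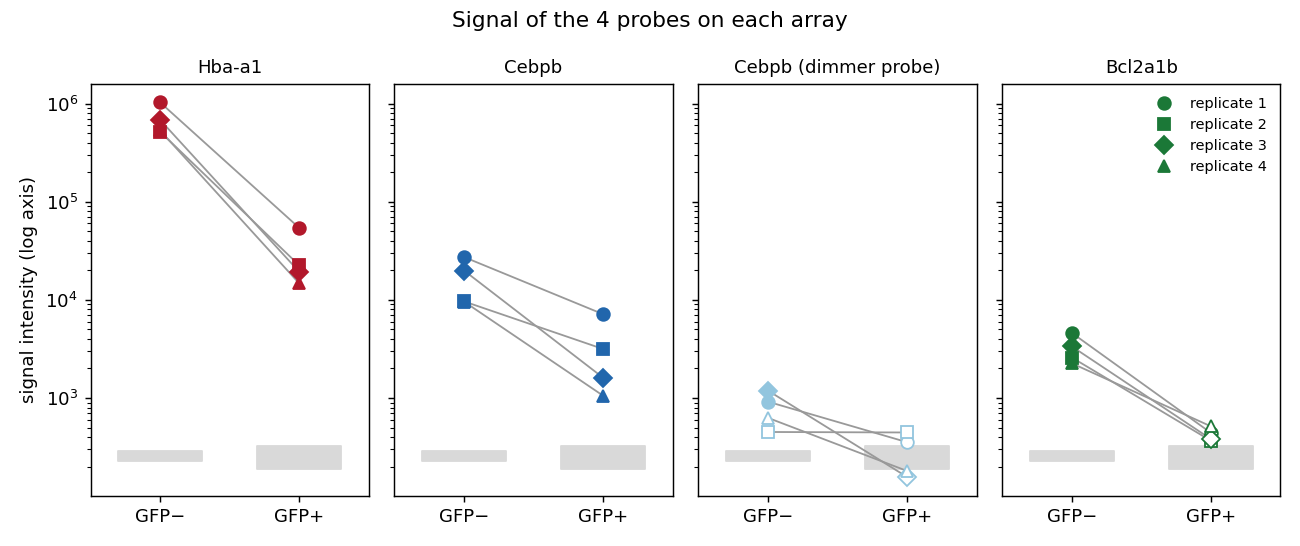
Signal of the 4 probes on each array (log axis, arbitrary units), GFP-negative and GFP-positive, with lines joining arrays of the same number. Filled points are above background, and the grey band is the range over a group's arrays of the median signal of undetected gene probes. Hba-a1 and the first Cebpb probe stay above the band in both groups, while Bcl2a1b falls to 367 to 514 in GFP-positive cells, close to it.

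The arrays of the same number were set against each other to compare the red cell gene with the myeloid genes. Hba-a1 kept 5.27%, 4.35%, 2.84% and 2.77% of its GFP-negative signal in the GFP-positive cells of pairs 1 to 4. Cebpb kept 26.2%, 32.8%, 8.10% and 11.0%. Bcl2a1b kept at most 9.59%, 14.2%, 11.4% and 22.8%, upper bounds, since it was not above background in GFP-positive cells. Hba-a1 kept a smaller share than Cebpb in 4 of 4 pairs. Where Bcl2a1b stands relative to Hba-a1 cannot be read from bounds, nor relative to Cebpb in pairs 3 and 4, whereas Cebpb kept more than the bound of Bcl2a1b in pairs 1 and 2. From the normalized means, 3.72% of Hba-a1, 17.2% of Cebpb and at most 15.1% of Bcl2a1b was left.

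The gap between Hba-a1 and Cebpb was present in every pair, at normalized shares of Cebpb that were 5.26, 8.19, 3.00 and 3.54 times those of Hba-a1. For Bcl2a1b, whose shares are upper bounds, the same ratio was at most 1.93, 3.85, 4.22 and 8.63. After the median signal of undetected probes was subtracted from each array, a choice made after seeing the data, the shares of Hba-a1 barely moved, at 5.24%, 4.32%, 2.80% and 2.72%. Those of Bcl2a1b, still resting on GFP-positive readings not above background, fell to 2.63%, 7.43%, 4.58% and 14.0%. Those of Cebpb became 25.2%, 31.5%, 6.98% and 8.77%. Cebpb thus stayed above Hba-a1 in all 4 pairs. The place of Bcl2a1b relative to Hba-a1 cannot be read with either treatment of background. Each share rests on its own probe's response to RNA amount, which was not tested.

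**Figure D2:**
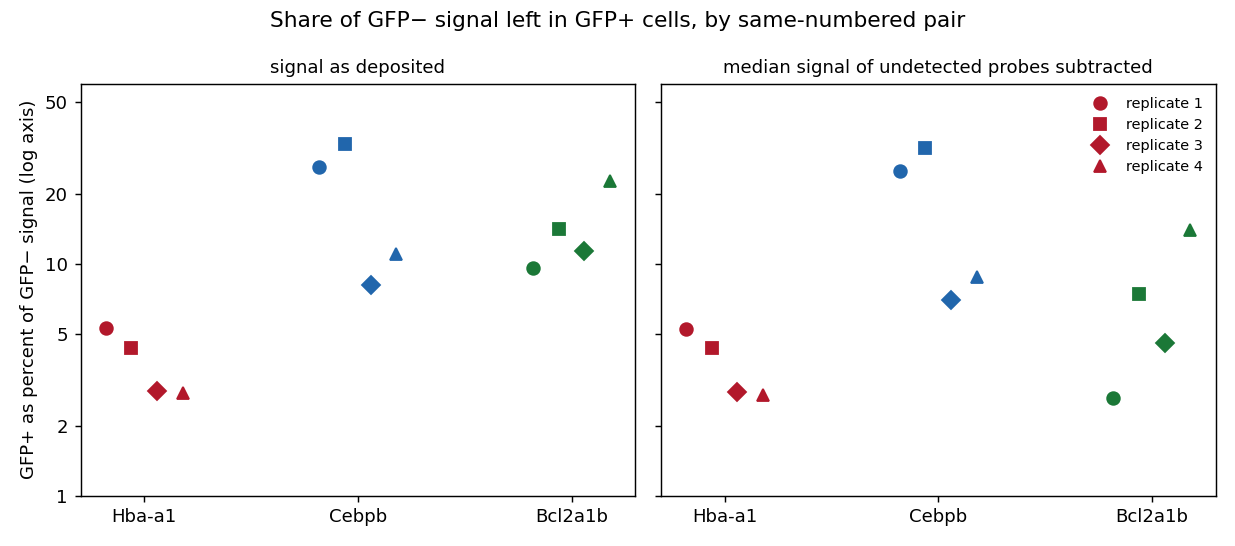
Share of the GFP-negative signal left in GFP-positive cells (percent, log axis) in pairs 1 to 4, from signals as deposited (one panel) and after subtraction of the median signal of undetected probes (the other panel). Hba-a1 lies between 2.72% and 5.27% in both panels, Cebpb drops from 26.2% and 32.8% in pairs 1 and 2 to 8.10% and 11.0% in pairs 3 and 4, and Bcl2a1b, whose points are not above background in GFP-positive cells, moves down after subtraction.

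The pairs fall into 2 sets by their hybridization control spots, which read 15.95 to 16.27 (log2) on replicates 1 and 2 and 17.13 to 17.35 on replicates 3 and 4, in both fractions. Within replicates 1 and 2, 4.96% of Hba-a1, 32.5% of Cebpb and 13.5% of Bcl2a1b was left. Within replicates 3 and 4 the shares were 2.79%, 9.08% and 16.8%. Hba-a1 and Cebpb therefore kept less in the second set. The values of Bcl2a1b are upper bounds in both sets and show no direction. A more negative difference in both pairs 3 and 4 than in either of pairs 1 and 2 was seen for 22.2% of the 16875 tested probes, those above background on 4 or more of the 8 arrays, so the pattern is common on these arrays. With 2 pairs in each set, whether the sets themselves carry this change was not tested.

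Whether the genes vary together was examined over the 4 arrays of each fraction, which are too few for a correlation. Among the GFP-negative arrays, replicate 2 was the lowest for normalized Hba-a1 and for both Cebpb probes, and replicate 4 for Bcl2a1b. Deviations from the group mean on arrays 1 to 4 were 0.07, -0.27, 0.13 and 0.08 for Hba-a1. They were 0.42, -0.53, 0.54 and -0.43 for Cebpb, and 0.25, -0.13, 0.24 and -0.35 for Bcl2a1b. Cebpb and Bcl2a1b thus shared their signs on all 4 arrays, with arrays 1 and 3 high, while Hba-a1 parted from them on array 4. Arrays 1 and 3 were the 2 highest for 16.5% of all tested probes.

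That resemblance depends in part on scaling. In the signals as deposited and after median scaling, arrays 1 and 3 were the 2 highest for Hba-a1, Cebpb and Bcl2a1b alike. Scaled to the reverse transcription kit spots, array 4 was the highest for Hba-a1 and arrays 3 and 1 the highest for the other genes. Scaled to the in vitro transcription kit spots, array 3 was the highest and array 2 the lowest for all 3. Those spots themselves read 17.12 (log2) on GFP-negative array 2 and 13.88 on array 3. That order and the wide spreads under this scaling thus largely follow the spots and show no likeness between the genes. The spread depends on scaling too. The normalized signal of Hba-a1 differed 1.33-fold between its highest and lowest GFP-negative array, against 2.10-fold for Cebpb and 1.52-fold for Bcl2a1b. As deposited, these spreads were 1.99-fold, 2.84-fold and 2.04-fold, and after median scaling 1.65-fold, 2.42-fold and 1.74-fold. With reverse transcription kit spots they were 1.35-fold, 1.86-fold and 1.17-fold, and with in vitro transcription kit spots 12.42-fold, 19.39-fold and 12.19-fold. Cebpb had the widest spread under each of these scalings, and the order of Hba-a1 and Bcl2a1b changed with the scaling. After quantile normalization, the SD of Hba-a1 was above that of 17.4% of tested probes in this group, that of Cebpb above 76.0% and that of Bcl2a1b above 39.5%.

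Over the GFP-positive arrays Hba-a1 and Cebpb had the same order, and Bcl2a1b, not above background there, had another. Deviations on arrays 1 to 4 were 0.56, 0.06, -0.16 and -0.46 for Hba-a1 and 1.09, 0.63, -0.38 and -1.35 for Cebpb. Those of Bcl2a1b were -0.33, 0.13, 0.00 and 0.19. The order with array 1 highest, then 2, 3 and 4, held for 10.3% of all tested probes in this group. Normalized Cebpb varied 5.45-fold between its highest and lowest GFP-positive array, with an SD above that of 95.5% of tested probes, and Hba-a1 varied 2.03-fold. As deposited these were 6.77-fold and 3.68-fold, after median scaling 6.02-fold and 3.27-fold, with reverse transcription kit spots 3.54-fold and 2.23-fold, and with in vitro transcription kit spots 3.91-fold and 2.12-fold. Cebpb thus varied more than Hba-a1 under each scaling, by amounts that depend on it. Array 1 was the highest for both genes under each of the other scalings as well, while the order of the remaining arrays moved.

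**Figure D3:**
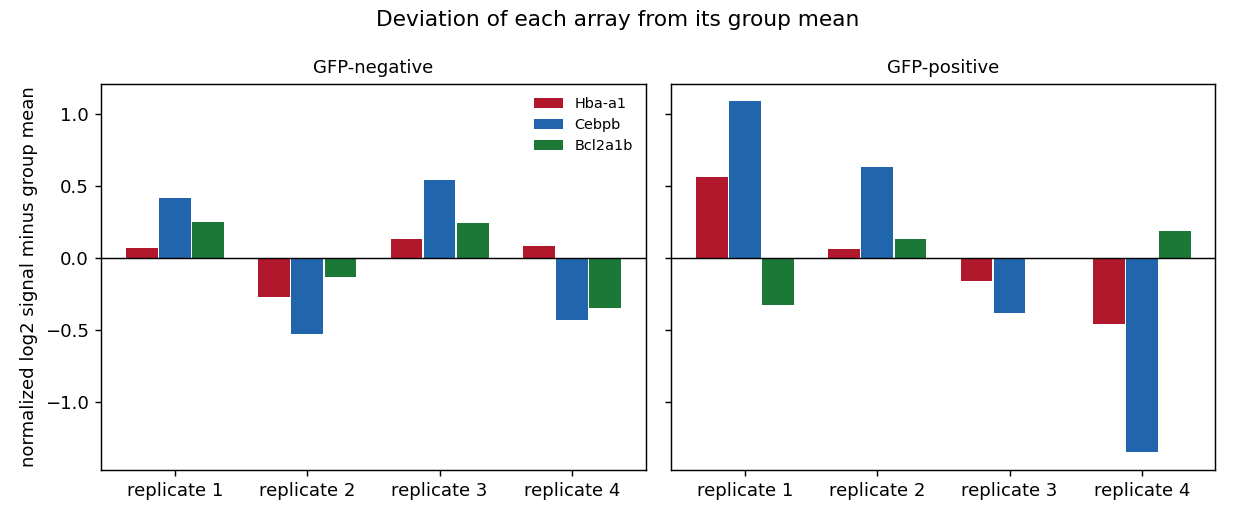
Deviation of each array from its group mean (normalized log2 signal) for Hba-a1, Cebpb and Bcl2a1b, GFP-negative and GFP-positive arrays 1 to 4. On GFP-negative arrays Cebpb and Bcl2a1b share signs throughout, and on GFP-positive arrays Hba-a1 and Cebpb do.

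The symbol-matched genes most like each member were found among 159 other genes with a tested probe, by Pearson r over the 8 arrays, as a description. Because both fractions enter, this r mostly reflects the difference between them. Hba-a1 was closest to Mfap4 (r = 0.989), a microfibril-associated protein of the vessel wall and its matrix, then Zbtb18 (0.983), a transcriptional repressor of developing cortical neurons, then Bcl2a1b (0.971). Bcl2a1b was closest to Zbtb18 (0.980), Mfap4 (0.975) and Hba-a1 (0.971). Cebpb was closest to Nt5dc3 (0.941), Trim59 (0.931) and Crip1 (0.915), with Hba-a1 in place 4 (0.910) and Bcl2a1b in place 16 (0.844). Zbtb18, a gene of neurons, had a slightly higher r with Hba-a1 than the leukocyte gene did. As 4 of the 8 Bcl2a1b readings were not above background and the members were chosen on this contrast, no ranking of likeness is drawn from that.

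When the group means were removed first, Hba-a1 was closest to Lgals7 (r = 0.900), an epithelial galectin, Cebpb (0.899) and H2-Q7 (0.788). Cebpb was closest to Lgals7 (0.945), H2-Q7 (0.935), an MHC class I gene, and Ccdc166 (0.921), with Hba-a1 in place 5. Bcl2a1b was closest to Edar (0.825), the ectodysplasin receptor, Gpr119 (0.800) and Ramp1 (0.792), a co-receptor for CGRP. Its r with Hba-a1 was -0.389 and with Cebpb -0.058. For Bcl2a1b, 4 of the 8 deviations behind each r are GFP-positive readings not above background, so these values do not show how it varied there. The 8 arrays share their control-spot sets, and each set holds only 4 arrays, too few for a value within it.

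Other genes of the same cell types and pathways were taken from 10 lists, the last of them drawn up later, and few of their genes could be matched to a probe. Of 61 red cell genes only Hba-a1 was matched, so no second haemoglobin, haem synthesis or red cell membrane gene was available to set beside it. None of 21 platelet and mast cell genes was matched. Over all lists together, with the 3 genes left out, 27 of 457 genes were matched and 12 were tested. With limma and Benjamini-Hochberg adjustment over all 16875 tested probes, 5 of the 12 passed an adjusted p of 0.05, 3 lower and 2 higher in GFP-positive cells. Over all tested probes 14.5% passed, 9.1% lower and 5.37% higher. The median of the tested probes' differences was 0.088 on the log2 scale, and with so few genes the counts are a description. These p-values measure only the spread between the 4 samples of each fraction.

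In the myeloid and microglia list, 5 of 114 genes were matched, and both tested genes other than Cebpb and Bcl2a1b were lower in GFP-positive cells. Plin3, which coats lipid droplets in many cells including macrophages, had normalized levels of 11.02, 9.91, 11.99 and 11.77 on the GFP-negative arrays and of 8.49, 7.77, 7.98 and 8.02 on the GFP-positive ones. It was at least 8.63-fold lower, with a limma difference of -3.11 ± 0.43 (SE) and an adjusted p of 0.00131. Lgals1, the lectin galectin-1 of macrophages, vessels and other cells, had levels of 11.90, 11.39, 12.07 and 10.39 against 9.02, 8.46, 9.19 and 8.89. It was at least 5.85-fold lower, with a difference of -2.55 ± 0.36 (SE) and a limma adjusted p of 0.00152. As for Bcl2a1b, both were below the detection score in all GFP-positive samples. Both therefore passed the filter on dim probes through the GFP-negative arrays alone. Entry by that route favours a lower reading in GFP-positive cells, so these calls are a description and no independent support. Neither gene is specific to myeloid cells. Tlr7, a sensor of single-stranded RNA in microglia and other leukocytes, was not tested, since it was detected on a single array, a GFP-positive one.

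The lymphocyte list gave 4 tested genes of 51, and none of them was lower. Tnfrsf13b, the TACI receptor of B cells, was higher in GFP-positive cells by 2.21 ± 0.45 (SE) on the log2 scale (limma adjusted p = 0.0103). Only 1 of its 4 GFP-negative arrays was above background, so the size of the difference rests partly on readings at background. Its GFP-positive arrays alone met the filter on dim probes. Entry by that route favours a higher reading in GFP-positive cells, so this call is a description and no independent support. The chemokines Ccl21a and Ccl21b, whose sequences are near-identical, differed by 0.11 (adjusted p = 0.869) and 0.24 (adjusted p = 0.453) in the limma fit, and Ccl19 by 0.33 (adjusted p = 0.865). These chemokines are made by stromal cells and act on lymphocytes, so that they do not mark lymphocytes themselves.

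Of the vessel wall list, 1 gene of 43 was matched. Mfap4 read 13.41, 12.76, 13.14 and 13.31 in GFP-negative and 10.94, 10.69, 10.79 and 10.85 in GFP-positive cells. It was 5.06-fold lower, by -2.34 ± 0.18 (SE), with a limma adjusted p of 5.67e-05. A gene of the vessel wall thus fell beside Hba-a1 and Bcl2a1b, and its part in their difference was not tested.

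The gene families of the members themselves were barely covered. Of 28 BCL2 family genes only Bcl2a1b was matched. Of 51 C/EBP and other leucine zipper factors, Jun was tested beside Cebpb and differed by -0.34 ± 0.26 (SE), a difference that did not pass (limma adjusted p = 0.47). Stat5a and Nlrp3, the matched genes of 62 in NF-kB and inflammatory signalling, were above background on too few arrays to be tested.

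A further set of 14 genes of leukocytes and immunity was picked by known role after the matched symbols had been seen. Of these, 3 were tested and none passed in the limma fit. Cd99, a surface protein of leukocytes and vessels, differed by -0.43 (adjusted p = 0.133, and 0.0404 with the replicate number as a block). H2-Q7 differed by -0.98 (adjusted p = 0.231) and Stat5b by 0.69 (adjusted p = 0.164). Lst1, a leukocyte-specific transcript, was not above background on any array. The other 10, Art2b, Ear1, Elf4, Fpr-rs6, Gab2, H2-Q8, Ifi202b, Klri2, Tnfsf13 and Trim34a, were above background on at most 1 array of a group.

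For the sorted neurons themselves, 2 of 29 GABAergic and pan-neuronal genes were matched. Scg2, a secretory granule protein of neurons, was higher in GFP-positive cells by 1.58 ± 0.31 (SE), with a limma adjusted p of 0.00844. It was above background on 2 GFP-negative and 4 GFP-positive arrays. As for Tnfrsf13b, the GFP-positive arrays alone met the filter on dim probes, so this call is a description too. Snap25, a synaptic vesicle fusion protein, was not above background on any array. The purity of the GFP-positive cells was therefore not measured here by GABAergic markers.

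**Figure D4:**
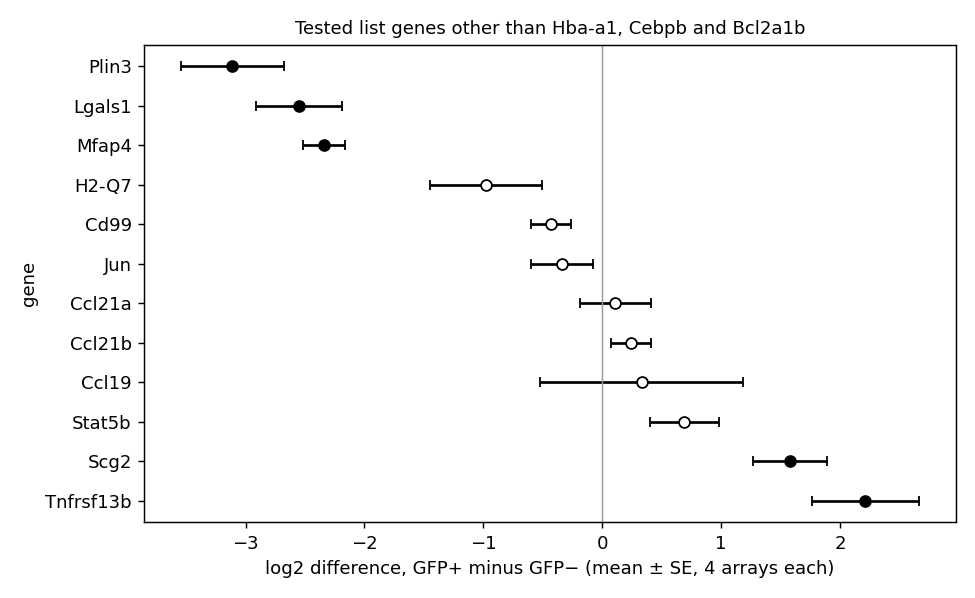
Log2 difference (GFP-positive minus GFP-negative, mean ± SE from limma) of the 12 tested list genes other than the 3 members, with filled points for an adjusted p under 0.05. Plin3, Lgals1 and Mfap4 lie below 0 and Tnfrsf13b and Scg2 above it.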

How the data were processed

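The authors deposited 4 array tables, each with 1 GFP-negative and 1 GFP-positive array, with 33012 gene probes and 303 control rows. Per the file headers they hold a linear signal intensity, a signal-to-noise score and a quality flag for every spot. Whether a background step was applied is not given in the sources used here. A ratio per probe is in the authors' deposited matrix, found here to be each signal over the median of its array's gene probes whose flags lie under 5000.

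Signals were set to at least 1, log2-transformed and quantile normalized. Probes that reached a signal-to-noise score of 3 in 4 or more of the 8 arrays (16875) were compared with limma 3.58.1 in R 4.3.3, without a block, with Benjamini-Hochberg adjustment. The procedure was tested on simulated data. Precision is limited by the 4 arrays per group. Median gene signals ran from 661.6 to 1079.4, and 16196 to 17749 gene probes per array were above background. Symbols came from RefSeq tables of assembly GRCm38.p6, 311 probes by transcript and 6 by synonym, and 27930 probes carry Celera identifiers and were not named.

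The members and lists were chosen with earlier results of these data known. Named were the members, every matched list gene, and for each member the 3 closest genes by each measure of likeness. Subtraction of the undetected median, use of the second Cebpb probe and the 14 further immune genes were chosen after seeing the data. Of 2 Ccl21b probes the one with the higher mean was used.

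Same-numbered arrays deviated together from their group means (r = 0.517, 0.455, 0.347 and 0.441, other combinations -0.389 to 0.162). The numbers were therefore taken to pair the samples, and each array table also holds a single number. Other scalings, filters, blocks by replicate or by control-spot set, and left-out replicates were run as alternatives.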

Additional observations from a re-analysis of the deposited data

Results flagged for a closer look

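In each set of 4 arrays, the gap of the highest or lowest array to its neighbour was divided by the whole range and compared with Dixon's critical value. Of 34 sets examined, 2 exceeded it, and chance gives about 1 in 20. For Hba-a1 the GFP-negative array 2 stood below the others, at a normalized 19.05 against 19.39 to 19.45, with a gap of 0.833 of the range. That range is small, at 1.33-fold. For Tnfrsf13b the GFP-positive array 4 read 10.05 against 10.51 to 10.60, a gap of 0.83.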

How the results depend on the processing

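Hba-a1, Cebpb and Bcl2a1b were lower in GFP-positive cells under every setting run, which is a description, since they were chosen on this contrast. Filters on dim probes and blocks do not enter the shares, so those settings could not change them. The number of passing probes, 2441, became 515 (301 higher, 214 lower) with scaling to the in vitro transcription kit spots, which read 17.12 (log2) on GFP-negative array 2 and at most 15.44 on the others and which moved the median difference of tested probes from 0.088 to 0.948. The share of Hba-a1 was then 6.94%, that of Cebpb 31.5% and that of Bcl2a1b at most 26.0%, and Plin3 (adjusted p = 0.105 in limma), Lgals1 (0.334), Mfap4 (0.435) and Scg2 (0.0865) lost their calls. The split of 906 higher and 1535 lower became 439 and 1424 with reverse transcription kit scaling, and 488 and 1360 with none. Within replicates 1 and 2 the count was 1088 and within replicates 3 and 4 it was 1173. With the replicate block it was 4043 (1830 higher, 2213 lower), and this paired fit, which does not enter the shares, added Cd99. Leaving out replicates gave 1529, without replicate 3, to 2416. Those settings gave shares of 3.29% to 4.06% for Hba-a1, 13.3% to 23.0% for Cebpb and 12.9% to 17.7% for Bcl2a1b. The share of Bcl2a1b was 5.95% with the undetected median subtracted, from GFP-positive readings not above background. That of Cebpb read 37.7% by its second probe. This is not a clean upper bound, since only 2 of its GFP-negative arrays were above background. Within replicates 1 and 2 limma calls were lost for Plin3 (adjusted p = 0.0667), Scg2 (0.136) and Tnfrsf13b (0.0797), and within 3 and 4 for Lgals1 (0.137) and Tnfrsf13b (0.203). Tnfrsf13b lost its call without replicate 2 (0.0545) or 3 (0.0813), and Scg2 without replicate 4 (0.0617). The cause was not tested. No list gene's call reversed. Bcl2a1b and the second Cebpb probe lie at background in GFP-positive cells, which limits how low a share can be read.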
